A study of Mus musculus with 6 samples.

Results

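The Hippo pathway genes described here are the 10 genes of its kinase core and of its transcriptional output in mouse cells. They are the MST kinase genes *Stk4* and *Stk3*, the LATS kinase genes *Lats1* and *Lats2*, the coactivator genes *Yap1* and *Wwtr1*, and the DNA-binding factor genes *Tead1*, *Tead2*, *Tead3*, and *Tead4*. They were chosen by gene symbol from the 55421 genes of the deposited tables. All 10 passed the filter on low counts that left 19005 genes for testing. The cells were C2C12, mouse myoblasts that form multinucleated myotubes once serum is withdrawn. The normal group (CUG5) carried a stably transfected plasmid with 5 CTG repeats behind *GFP*, and the DM1 group (CUG200), a model of myotonic dystrophy type 1, carried the same plasmid with 200 repeats. Both groups thus share the parental line, the *GFP* cassette, and G418 selection, and differ in the length of the repeat. They were also transfected and selected separately, and differences between the stable lines cannot be told apart from the repeat length here. Total RNA of 3 libraries per group, taken at differentiation day 4, was sequenced. The study calls the libraries of a group biological replicates, and its methods do not say whether they came from separate transfections, so the p-values measure the spread between these libraries.

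In the Hippo pathway, the MST kinases with their adaptor SAV1 activate the LATS kinases with their adaptors MOB1A and MOB1B, and the LATS kinases phosphorylate YAP and TAZ so that these stay in the cytoplasm. Unphosphorylated YAP and TAZ enter the nucleus and bind the TEAD factors, which contact DNA but need a coactivator to raise transcription. In muscle, YAP is known to favour the proliferation of myoblasts, and TEAD factors occupy the MCAT elements of many muscle genes. Phosphorylation, protein level, and localization of these proteins are not measured by RNA sequencing.

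The TEAD factors recognise the sequence GGAATG, which is CATTCC on the opposite strand, and these letters were searched on both strands of RefSeq windows of 300 bases (GRCm38.p6) around annotated start sites. The motif was found in 14.7% of all 32851 windows, and 16.6% of the 27025 genes with a window had it in at least 1. Of the 10 pathway genes, 7 had a window and 4 of these had the motif, namely *Wwtr1*, *Yap1*, *Lats2*, and *Tead3*. Of the 22 genes in a list of known YAP/TAZ-TEAD targets described further on, 15 had a window and 7 had the motif, *Lats2* among them. The sites of these 4 pathway genes and of the classical targets *Ankrd1* and *Ccn1* are shown because they place the pathway's own DNA element beside the genes whose RNA was measured. Each is given 5′ to 3′ on the gene's strand, which is the minus strand for every gene shown, with the motif in capitals and the place of its first base counted from an annotated start site (negative, before it).
Wwtr1 (chr3:57576029-57576058, motif at -136 from the start site): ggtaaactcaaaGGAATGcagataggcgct
Yap1 (chr9:8004720-8004749, motif at -141 from the start site): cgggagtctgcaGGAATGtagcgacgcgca
Lats2 (chr14:57746102-57746131, motif at 4 from an annotated start site inside the gene): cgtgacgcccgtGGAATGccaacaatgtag
Tead3 (chr17:28350706-28350735, motif at -123 from an annotated start site inside the gene): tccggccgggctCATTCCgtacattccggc
Tead3 (chr17:28350697-28350726, motif at -114 from an annotated start site inside the gene): gctcattccgtaCATTCCggccatccccct
Tead3 (chr17:28350581-28350610, motif at 2 from an annotated start site inside the gene): aggtaagcccggGGAATGcaactcggaggc
Tead3 (chr17:28350970-28350999, motif at -182 from another annotated start site): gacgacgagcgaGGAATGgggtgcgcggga
Ankrd1 (chr19:36119950-36119979, motif at -123 from an annotated start site inside the gene): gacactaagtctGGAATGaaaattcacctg
Ankrd1 (chr19:36120037-36120066, motif at -210 from the same start site): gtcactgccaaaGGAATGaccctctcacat
Ccn1 (chr3:145650071-145650100, motif at -103 from an annotated start site): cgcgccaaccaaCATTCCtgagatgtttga
The sequences in lower case around the motif differed between genes. At *Tead3* the motifs at -123 and -114 share 1 stretch of the promoter. A match describes letters in a window, and binding was not measured in these libraries.

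Library totals lay between 61707889 and 80957325 counts, of which mitochondrial genes took 9.04% in the first normal and 8.90% in the third DM1 library and between 12.3% and 13.5% in the other 4. The same 2 libraries hold the outlying values of *Yap1*, *Wwtr1*, and *Stk4* given below. The third DM1 library differed from the first DM1 library by more (chi-square per degree of freedom 36.6) than from the first or the second normal library (34.2 and 31.1). The unit of a deposited count is 75 aligned bases, since coverage times transcript length divided by 75 gave it, within 1 count, for 99.8% of 34186 single-transcript genes. Values below are CPM, counts divided by the TMM-scaled library size, unless named otherwise, and 3 counts, the floor used here, were 0.0357 to 0.0489 CPM. For the comparison edgeR's quasi-likelihood test was used, with p-values adjusted over all 19005 genes by Benjamini-Hochberg, and every adjusted p below is from that test unless another tool is named. Log2 fold changes are CUG200 minus CUG5. As a check of the labelled cell type, all 10 markers of differentiating muscle were measured and 8 fell in the DM1 group, *Myog* by 0.65 and *Myh3* by 1.32 on the log2 scale, while *Mymx* had higher values in every DM1 library (log2 fold change 0.23) and did not pass the test. The 10 markers had a summed level of 8750 to 10300 TPM (the deposited level per transcript length) in the normal and 4510 to 6710 TPM in the DM1 libraries. Deposited TPM is not TMM-scaled. Over all tested genes the median log2 fold change was -0.06 on log2(TPM + 1), against 0.02 on TMM-scaled counts. In RNA from whole cultures, fewer differentiated cells and less RNA per cell cannot be told apart. *Adipoq*, *Fabp4*, and *Cfd*, which define adipocytes, and *Ptprc* and *Adgre1*, which define macrophages, were at 0 counts in every library. Among the other markers of these lists *Lpl*, which muscle also expresses, was tested and fell by 0.59 on the log2 scale, and the summed level of the list was 11.9 to 14.7 TPM in the normal and 7.7 to 8.78 TPM in the DM1 libraries for the 5 adipocyte markers and 4.15 to 6.17 and 4.15 to 6.82 TPM for the 5 macrophage markers. The 5 endothelial markers summed to 3.47 to 4.37 TPM in the normal and 1.4 to 2.43 TPM in the DM1 libraries, most of it from *Tek*, which fell by 0.95 on the log2 scale, while *Vwf*, the other one tested, had higher values in every DM1 library (log2 fold change 0.59) and did not pass.

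Of the 10 genes, 3 fell in the DM1 group and 0 rose, at an adjusted p under 0.05 in edgeR. The genes that fell were *Wwtr1*, which encodes TAZ, *Tead2*, and *Tead4*, each to between 0.654 and 0.740 of its normal level. At an unadjusted p under 0.05, *Tead3* was higher and *Stk4* was lower as well. DESeq2, which called 22.2% of the genes it tested, called both. In edgeR 15.9% of all tested genes were called, 8.73% as lower and 7.13% as higher. With an absolute log2 fold change over 1 as a further cutoff, 0 of the 10 genes and 2.18% of all tested genes were called. The libraries of the groups did not overlap for 5 genes that were lower (*Wwtr1*, *Lats1*, *Stk4*, *Tead2*, and *Tead4*) and for 1 that was higher (*Tead3*) in the DM1 group, against 19.3% and 17.9% of all tested genes, or 37.2% in both directions. The median log2 fold change was -0.37 over the 10 genes and 0.02 over all tested genes.

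**Figure D1:**
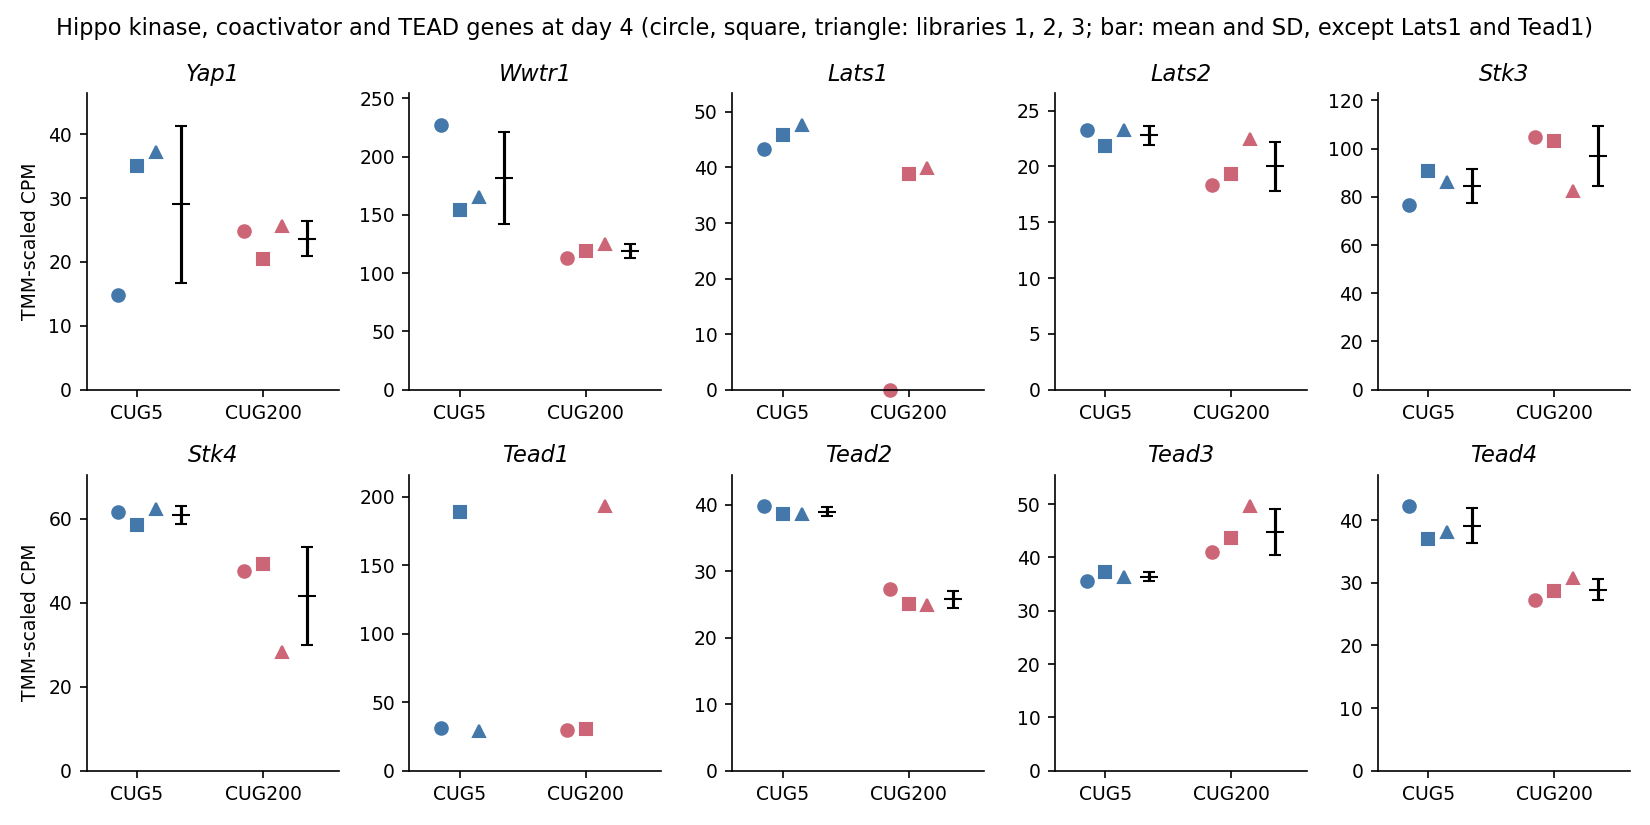
TMM-scaled CPM of the 10 Hippo pathway genes in each library (circle, square, and triangle for libraries 1, 2, and 3; blue, CUG5; red, CUG200), with mean and SD beside each group except for Lats1 and Tead1, and each vertical axis starting at 0. Wwtr1, Tead2, and Tead4 lie lower in all 3 CUG200 libraries, Lats1 lies at 0 in 1 CUG200 library, and Tead1 has 1 library near 190 in each group.

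The MST kinases start the cascade. *Stk4*, which encodes MST1 and spans chr2:164070322-164155524 on the plus strand, was at 61.6, 58.4, and 62.4 CPM in the normal and 47.5, 49.3, and 28.2 CPM in the DM1 libraries. All 3 DM1 libraries were below the normal ones, and the third DM1 library was the lowest by a wide margin. The log2 fold change was -0.55 (SE 0.195, 95% interval -1.0 to -0.09, adjusted p = 0.102), so *Stk4* did not pass the test. Without the third DM1 library it was -0.33 with an adjusted p of 0.0190, and DESeq2 gave an adjusted p of 0.0202. These 2 fits called 19.2% and 22.2% of the genes they tested, against 15.9% in the main fit. *Tomm34*, a gene on the opposite strand that overlaps *Stk4*, had 4217, 3312, and 3673 counts in the normal and 3002, 3241, and 3391 counts in the DM1 libraries. The strand setting of the counting is not given in the sources used here, so reads of *Stk4* and *Tomm34* in the shared stretch may not be told apart.

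*Stk3*, which encodes MST2 and spans chr15:34875496-35178921 on the minus strand, was at 76.6, 90.7, and 86.1 CPM in the normal and 105, 103, and 82.5 CPM in the DM1 libraries. The groups overlapped through the third DM1 library. The log2 fold change was 0.20 (SE 0.114, 95% interval -0.06 to 0.46, adjusted p = 0.277), and without the third DM1 library it was 0.30 with an adjusted p of 0.0446. On the TPM scale, which allows levels of different genes to be compared, *Stk3* made up between 68.6% and 73.1% of the sum of both MST kinase genes in the normal libraries and between 77.5% and 82.8% in the DM1 libraries. The summed TPM of the pair was 68.5, 70.1, and 67.5 in the normal and 64.5, 69.1, and 58.8 in the DM1 libraries. The share of *Stk3* was thus larger in every DM1 library, while the ranges of the sum overlapped.

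The LATS kinases are the enzymes that phosphorylate YAP and TAZ. *Lats1* lies at chr10:7681214-7716460 on the plus strand, and its deposited counts were 3643, 2810, and 3328 in the normal and 0, 2765, and 2654 in the DM1 libraries. The first DM1 library thus held not a single count, which allows up to 3 counts or 0.0403 CPM, while the other 5 libraries lay between 38.8 and 47.6 CPM. The flanking genes were at their usual counts in that library. *Pcmt1*, upstream of *Lats1*, had 2029, 1585, and 1957 counts in the normal and 2044, 1935, and 1353 counts in the DM1 libraries. *Nup43* had 861 and *Katna1*, downstream of *Lats1*, had 1305 counts in the first DM1 library, against 561 to 857 and 1062 to 1196 counts in the normal ones.

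Of the 7813 genes with at least 1000 counts in each of the other 5 libraries, *Lats1* and *Fbxo32*, which encodes the muscle ubiquitin ligase atrogin, were the 2 at 0 counts in the first DM1 library (*Fbxo32* is named because of this count, after its values were seen). The same search in the other libraries gave 1 gene each in the third normal library (*Gm10260*) and the third DM1 library (*Gm20716*) and 0 genes in the remaining 3 libraries. The cause of the 0 of *Lats1* was not tested. With the 0 included, the log2 fold change was -0.80 (SE 1.61, 95% interval -5.15 to 3.56, adjusted p = 0.801), an interval too wide to place the gene. Without the first DM1 library, the log2 fold change was -0.20 (SE 0.0837, adjusted p = 0.165), and the 2 remaining DM1 libraries (38.8 and 39.9 CPM) lay below the normal ones (43.3, 45.8, and 47.6 CPM).

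*Lats2*, the paralogue of *Lats1* and itself a known target of YAP, lies at chr14:57689662-57758388 on the minus strand and was at 23.3, 21.8, and 23.3 CPM in the normal and 18.3, 19.3, and 22.5 CPM in the DM1 libraries. The third DM1 library reached into the normal range. The log2 fold change was -0.19 (SE 0.110, 95% interval -0.44 to 0.06, adjusted p = 0.295). *Lats1* held between 53.9% and 56.4% of the summed TPM of both LATS genes in the normal libraries, and 58.0% and 55.6% in the second and the third DM1 library. *Lats1* was thus above *Lats2* per length in each of the 5 libraries in which it was counted. In the first DM1 library *Lats2* was at 18.3 CPM, the lowest of its 6 values.

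**Figure D2:**
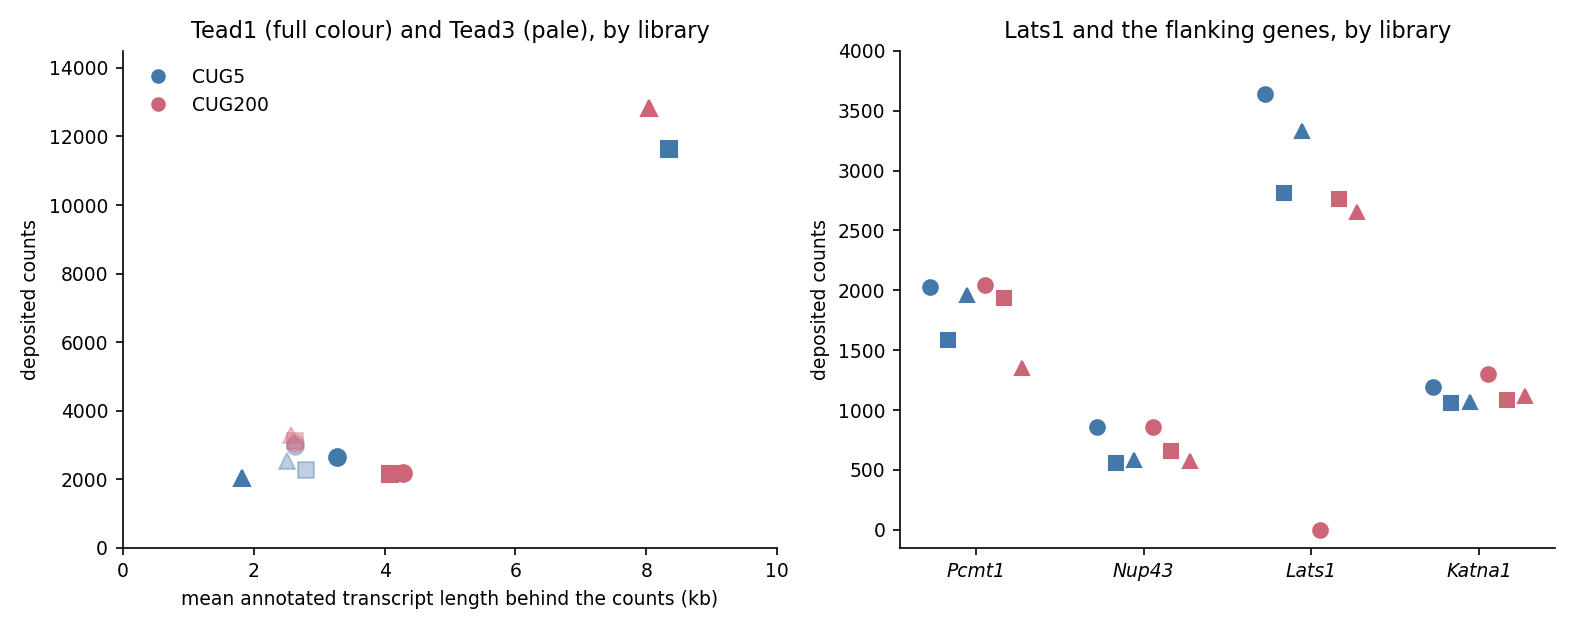
Left, deposited counts of Tead1 (full colour) and Tead3 (pale) against the mean annotated transcript length behind the counts, in kilobases. Right, deposited counts of Lats1 and its 3 flanking genes in each library (blue, CUG5; red, CUG200; circle, square, and triangle for libraries 1, 2, and 3). Tead1 reaches 11623 and 12833 counts in the 2 libraries with mean lengths of 8342 and 8043 nucleotides, and Lats1 is at 0 in the first CUG200 library while the flanking genes are not.

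Of the coactivators, the gene of TAZ fell. *Wwtr1*, at chr3:57455649-57575910 on the minus strand, was at 227, 154, and 165 CPM in the normal and 113, 119, and 125 CPM in the DM1 libraries. All 3 DM1 libraries lay below the lowest normal library and close to each other, while the first normal library stood above the other two. *Wwtr1* fell by 0.61 on the log2 scale (SE 0.141, 95% interval -0.93 to -0.29, adjusted p = 0.0225), from 182 ± 39.0 to 119 ± 5.87 CPM (SD, n = 3). The call held in 3 of the 6 fits that left out 1 library, with adjusted p between 0.0317 and 0.0797. It was lost without the third normal library (0.0555), the first DM1 library (0.0797), and the second DM1 library (0.0788), with the log2 fold change between -0.72 and -0.43 over the 6 fits.

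*Yap1*, at chr9:7931999-8004596 on the minus strand, was at 14.8, 35, and 37.2 CPM in the normal and 24.8, 20.5, and 25.6 CPM in the DM1 libraries. The DM1 libraries lay between the first normal library and the other two, so the groups overlapped. The log2 fold change was -0.30 (SE 0.343, 95% interval -1.13 to 0.54, adjusted p = 0.627). Without the first normal library it was -0.62 with an adjusted p of 0.0384. That library had the lowest *Yap1* and the highest *Wwtr1* value of all 6, and *Wwtr1* made up 92.9% of the summed TPM of the pair there, against 77.8% in both other normal libraries and 77.6%, 83.7%, and 78.4% in the DM1 libraries. The summed TPM of *Yap1* and *Wwtr1* was 93.5, 70.0, and 73.5 in the normal and 44.1, 45.9, and 58.8 in the DM1 libraries, which did not overlap. Unlike the CPM values, these sums are not TMM-scaled.

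**Figure D3:**
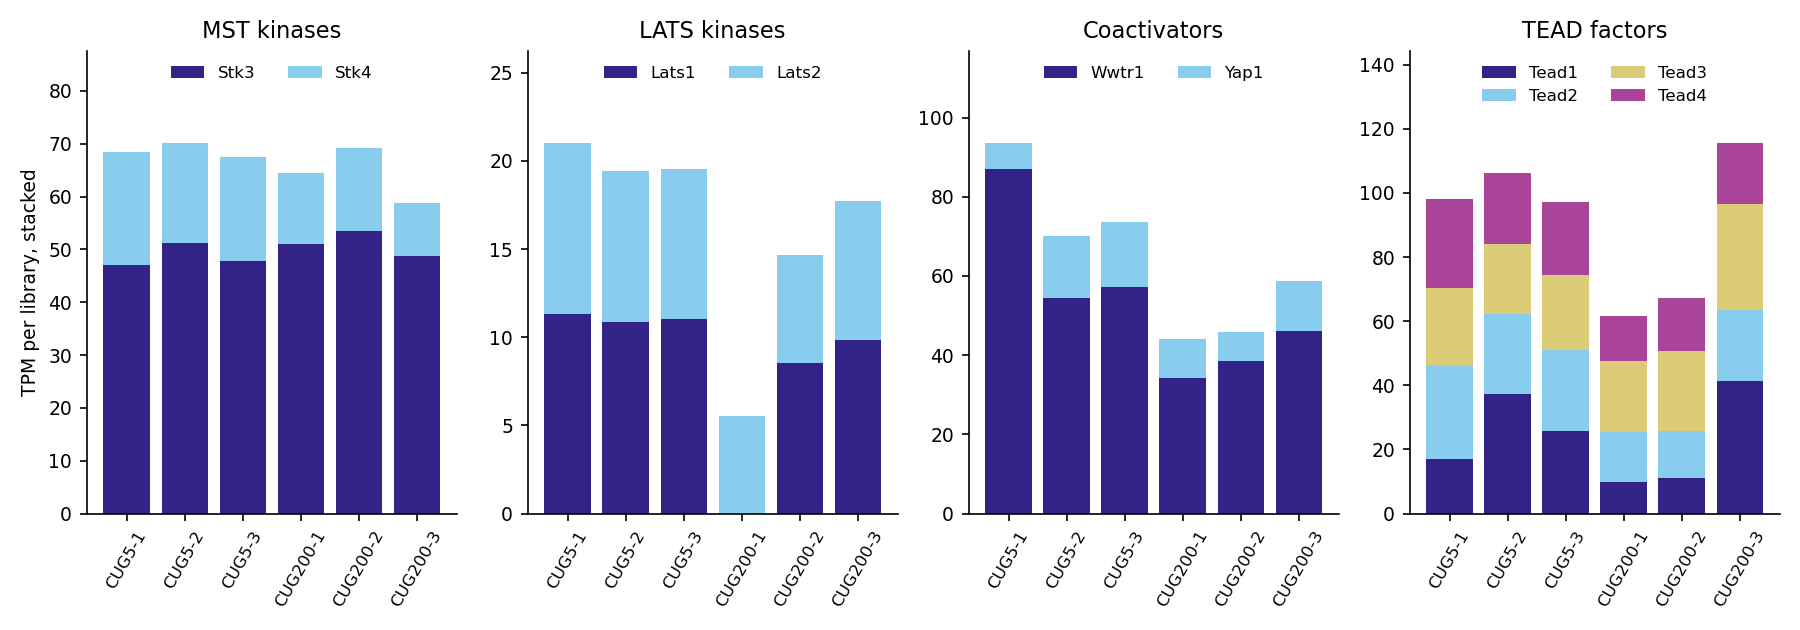
Stacked deposited TPM of the MST kinase, LATS kinase, coactivator, and TEAD factor genes in each of the 6 libraries, with a separate vertical axis from 0 for each panel. The summed coactivator level lies between 70.0 and 93.5 TPM in the CUG5 and between 44.1 and 58.8 TPM in the CUG200 libraries, and the Lats1 segment is missing in CUG200-1.

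The TEAD factors bring YAP and TAZ to DNA, and 2 of the 4 genes fell, against 8.73% of all tested genes. *Tead2*, which is known from early embryos and progenitor cells, lies at chr7:45215753-45233644 on the plus strand and was at 39.8, 38.6, and 38.6 CPM in the normal and 27.3, 25.1, and 24.9 CPM in the DM1 libraries. The values of a group lay close together and the groups were far apart. *Tead2* fell by 0.60 on the log2 scale (SE 0.0843, 95% interval -0.79 to -0.41, adjusted p = 0.00385), from 39.0 ± 0.723 to 25.8 ± 1.31 CPM (SD, n = 3). The call held in all 6 fits that left out 1 library, with a log2 fold change between -0.63 and -0.58. In limma on log2(TPM + 1) it did not pass (adjusted p = 0.0766), a fit that called 5.39% of all tested genes.

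*Tead4*, a factor of the trophectoderm that is also expressed in differentiating myoblasts, lies at chr6:128224288-128300823 on the minus strand and was at 42.2, 37.0, and 38.1 CPM in the normal and 27.3, 28.7, and 30.7 CPM in the DM1 libraries. The highest DM1 library was below the lowest normal library. *Tead4* fell by 0.44 on the log2 scale (SE 0.0935, 95% interval -0.65 to -0.22, adjusted p = 0.0170), from 39.1 ± 2.74 to 28.9 ± 1.74 CPM (SD, n = 3). The call was lost without the first normal library (adjusted p = 0.0742), the third normal library (0.0694), or the second DM1 library (0.0683), and kept in the other 3 such fits. Markers of differentiating muscle fell in the same libraries, with the ranges of summed TPM given above, and their part in the fall of *Wwtr1*, *Tead2*, and *Tead4* was not tested. Of the 8 markers of proliferating cells, 0 passed the test in edgeR (1, *Plk1*, had an unadjusted p under 0.05, and was lower), and their summed level was 399 to 454 TPM in the normal and 399 to 428 TPM in the DM1 libraries. Of 8 markers of undifferentiated myoblasts, *Cd34* rose by 0.97 (adjusted p = 0.00305), *Id2* rose by 0.41 (adjusted p = 0.0304), and *Hes1* fell by 0.67 on the log2 scale (adjusted p = 0.0143), and the summed level was 195 to 216 TPM in the normal and 202 to 242 TPM in the DM1 libraries. Of 8 fibroblast markers, 7 were tested and 4 rose (*Dpt*, *Lum*, *Dcn*, and *Col15a1*), with a summed level of 939 to 1500 TPM in the normal and 1320 to 1720 TPM in the DM1 libraries.

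*Tead3*, at chr17:28331671-28350817 on the minus strand, was the TEAD gene with higher values in the DM1 group. It was at 35.5, 37.2, and 36.4 CPM in the normal and 41.1, 43.7, and 49.6 CPM in the DM1 libraries. Every DM1 library was above every normal one. The log2 fold change was 0.30 (SE 0.0932, 95% interval 0.09 to 0.51, adjusted p = 0.0597), which did not pass the test. It passed in DESeq2 (adjusted p = 0.0453), with counts divided by 4 (0.0491), and without the first DM1 library (0.0307, log2 fold change 0.37). These fits called 22.2%, 21.5%, and 13.4% of the genes they tested, against 15.9% in the main fit.

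*Tead1*, at chr7:112679318-112906807 on the plus strand, encodes a TEAD factor known to bind the MCAT elements of muscle genes. Its counts were 2640, 11623, and 2035 in the normal and 2195, 2151, and 12833 in the DM1 libraries, or 31.4, 189, and 29.1 CPM and 29.5, 30.2, and 193 CPM. The second normal and the third DM1 library were thus far above the others, which agreed closely, and each group held 1 of these libraries. The log2 fold change was 0.02 (SE 1.26, 95% interval -3.38 to 3.41, adjusted p = 0.996). It ranged from -1.48 to 1.47 over the 6 fits that left out 1 library. Without both libraries it was -0.02 (SE 0.104, adjusted p = 0.924), an alternative chosen after seeing the data.

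The mean length of the transcripts to which the *Tead1* counts were assigned, computed from the deposited coverage and FPKM, was 3272, 8342, and 1827 nucleotides in the normal and 4283, 4090, and 8043 nucleotides in the DM1 libraries. The 2 libraries with high counts were the 2 with the longest mean. The annotation holds 11 protein-coding transcripts of *Tead1*, from 546 to 9964 nucleotides. The longest mean was 4.57 times the shortest, while this ratio was between 1.00 and 1.35 for the other 9 pathway genes, and over 2 in 0.488% of the 7784 genes with at least 1000 counts in every library. Of the 8730 genes with a mean of at least 1000 counts, 9 differed at least 4-fold within both groups, and *Tead1* was 1 of these 9. On the TPM scale, which divides by this length, *Tead1* was at 17.1, 37.3, and 25.7 in the normal and 9.72, 11.1, and 41.2 in the DM1 libraries. The same 2 libraries were still highest, by a smaller ratio. Whether these libraries held more long *Tead1* transcripts or whether reads were assigned differently was not tested.

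Among *Tead2*, *Tead3*, and *Tead4*, taken without *Tead1*, the share of *Tead3* in the summed TPM was 29.7% to 32.6% in the normal and 42.6% to 44.6% in the DM1 libraries. The share of *Tead2* was 35.5% to 36.1% in the normal and 26.0% to 30.5% in the DM1 libraries, and that of *Tead4* was 31.9% to 34.1% and 25.4% to 29.4%. The 3 genes had near equal shares in the normal group, and *Tead3* had the largest share in each DM1 library. These shares are ratios of the same values as above and were not tested.

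**Figure D4:**
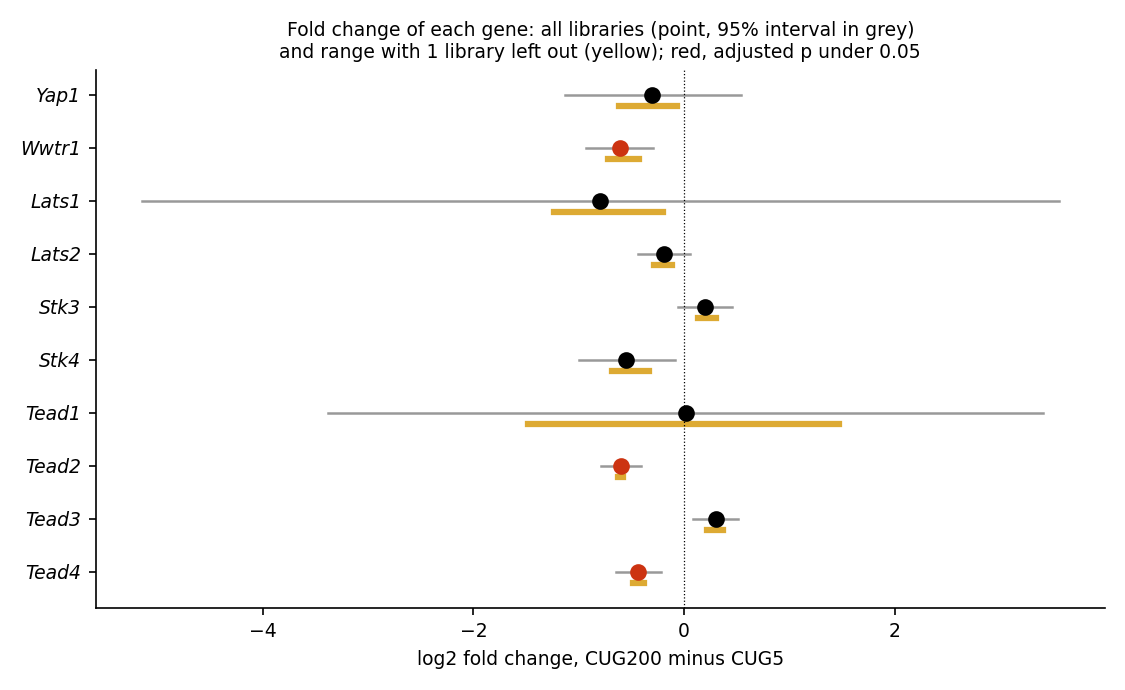
Log2 fold change (CUG200 minus CUG5) of each of the 10 Hippo pathway genes with its 95% interval (grey line) and the range of the values with each library left out in turn (yellow bar); red points have an adjusted p under 0.05. Wwtr1, Tead2, and Tead4 lie at -0.61, -0.60, and -0.44, and the intervals of Lats1 and Tead1 span more than 3 log2 units on both sides of 0.

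In levels per length, the order of the mean TPM in the normal group was *Wwtr1* at 66.2 ± 18.0, *Stk3* at 48.7 ± 2.26, *Tead1* at 26.7 ± 10.1, *Tead2* at 26.5 ± 2.39, *Tead4* at 24.3 ± 2.94, *Tead3* at 23.1 ± 1.17, *Stk4* at 20 ± 1.38, *Yap1* at 12.8 ± 5.40, *Lats1* at 11.1 ± 0.227, and *Lats2* at 8.92 ± 0.660 (SD, n = 3). Among neighbours in this order, the libraries did not overlap between *Wwtr1* and *Stk3*, *Stk3* and *Tead1*, *Tead3* and *Stk4*, *Stk4* and *Yap1*, and *Lats1* and *Lats2*, while the other neighbours overlapped. In the DM1 group *Stk3* led at 51.1 ± 2.41 TPM and *Wwtr1* followed at 39.6 ± 6.02 TPM, with no overlap between them or between *Wwtr1* and the next gene. *Tead3* was at 26.7 ± 5.72, *Tead1* at 20.7 ± 17.8, *Tead2* at 17.6 ± 4.13, *Tead4* at 16.4 ± 2.44, *Stk4* at 13.1 ± 2.76, *Yap1* at 10 ± 2.62, *Lats2* at 6.51 ± 1.21, and *Lats1* at 6.12 ± 5.34 TPM (SD, n = 3), and from *Tead3* on each gene overlapped with its neighbour. In the DM1 libraries *Lats1* was at 0, 8.51, and 9.84 TPM, so its last place rests on the 0. *Tead1* was at 9.72, 11.1, and 41.2 TPM there, so its place rests on the third library. The order was the same by FPKM in both groups. TAZ was thus the more abundant coactivator RNA and MST2 the more abundant MST kinase RNA in every library.

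Of 68 other genes of the pathway, taken from a list of its known components, 61 were tested, and 12 fell and 3 rose in the DM1 group (24.6% called, against 15.9% of all tested genes). With an absolute log2 fold change over 1 as a further cutoff 0 of them were called, and the median log2 fold change was -0.13. Without any 1 of the normal libraries, or without the second DM1 library, between 5 and 7 of them fell and at most 1 rose. Between 5.18% and 7.25% of all tested genes were called in those fits. Without the third DM1 library 18 of them fell, where 19.2% of all tested genes were called. Of the core adaptors, *Mob1b*, a partner of the LATS kinases, fell by 0.53 on the log2 scale (SE 0.125, adjusted p = 0.0234), from 56.4 ± 4.30 to 39.0 ± 6.23 CPM (SD, n = 3), a call that held in 3 of the 6 fits with 1 library left out. *Sav1*, the scaffold of the MST kinases, had a log2 fold change of -0.21 (adjusted p = 0.134), and *Mob1a* had one of -0.05 (adjusted p = 0.793), which turned to 0.03 without the third DM1 library.

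A group of 16 genes holds upstream regulators of the LATS kinases, such as the tumour suppressor merlin and the MAP4K and TAO kinases, and the genes *Stk38* and *Stk38l* of the LATS-related NDR kinases. *Nf2*, which encodes merlin, was at 87.4 ± 5.31 CPM in the normal and 73.3 ± 2.30 CPM in the DM1 group (SD, n = 3; log2 fold change -0.25, adjusted p = 0.0623). *Taok1*, a kinase that phosphorylates the MST kinases, fell by 0.44 (adjusted p = 0.0244), and *Tnik*, a member of the MAP4K family, fell by 0.70 on the log2 scale (adjusted p = 0.0190). *Mink1*, another member of that family, rose by 0.36 (adjusted p = 0.0303). Of the 6 fits that left out 1 library, the call of *Taok1* held in 4 and those of *Tnik* and *Mink1* in 2 each. The other 12 genes of this group, besides *Nf2*, did not pass the test. All 16 were tested, with 2 lower and 1 higher (18.8% called, against 15.9% of all tested genes).

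Of 16 genes for junction, angiomotin, and polarity proteins, 13 were tested, with 2 lower and 1 higher (23.1% called, against 15.9% of all tested genes). *Amot*, which encodes angiomotin, a protein that binds YAP and holds it outside the nucleus, was at 53.5, 49.4, and 58.6 CPM in the normal and 35.8, 32.7, and 33.9 CPM in the DM1 libraries. The groups were well apart, and *Amot* fell by 0.66 on the log2 scale (SE 0.0917, adjusted p = 0.00369) and passed in each of the 17 alternatives tried. *Patj*, a polarity scaffold, fell by 0.98 (SE 0.142, adjusted p = 0.00447), and its mean transcript length differed by a ratio of 1.72 between libraries. *Ptpn14*, which encodes a phosphatase that binds YAP and is itself a target of YAP, rose by 0.53 (adjusted p = 0.0180). In the fits that left out 1 library, the call of *Patj* held in all 6 and that of *Ptpn14* in 2. On deposited TPM, *Patj* did not pass in limma (log2 fold change -0.65, adjusted p = 0.151 on log2(TPM + 1)), and the third DM1 library (29.5 TPM) lay within the normal range of 28.3 to 31.8 TPM.

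The FAT and DCHS cadherins signal between neighbouring cells. A group of 8 genes holds these cadherins together with *Fjx1* and *Lix1l*, which do not encode cadherins and were tested without being called. Of the 8 genes, 7 were tested, with 1 lower (14.3% called, against 15.9% of all tested genes). *Fat1* fell by 0.57 on the log2 scale (adjusted p = 0.0128), from 111 ± 2.23 to 74.8 ± 11.8 CPM (SD, n = 3), and the other 6 did not pass the test. Of 21 genes for RASSF, Ajuba, and STRIPAK proteins, which bind or dephosphorylate the MST kinases or restrain the LATS kinases, 19 were tested, with 3 lower and 1 higher (21.1% called, against 15.9% of all tested genes). *Rassf3* fell by 0.58 (adjusted p = 0.00348), *Rassf2* by 0.88 (adjusted p = 0.0157), and *Strip2* by 0.68 on the log2 scale (adjusted p = 0.0264). *Rassf1*, a tumour suppressor that binds the MST kinases, rose by 0.43 (adjusted p = 0.0347). With 1 library left out, the call of *Rassf3* held in all 6 fits, that of *Rassf2* and *Fat1* in 3, that of *Strip2* in 2, and that of *Rassf1* in 1.

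**Figure D5:**
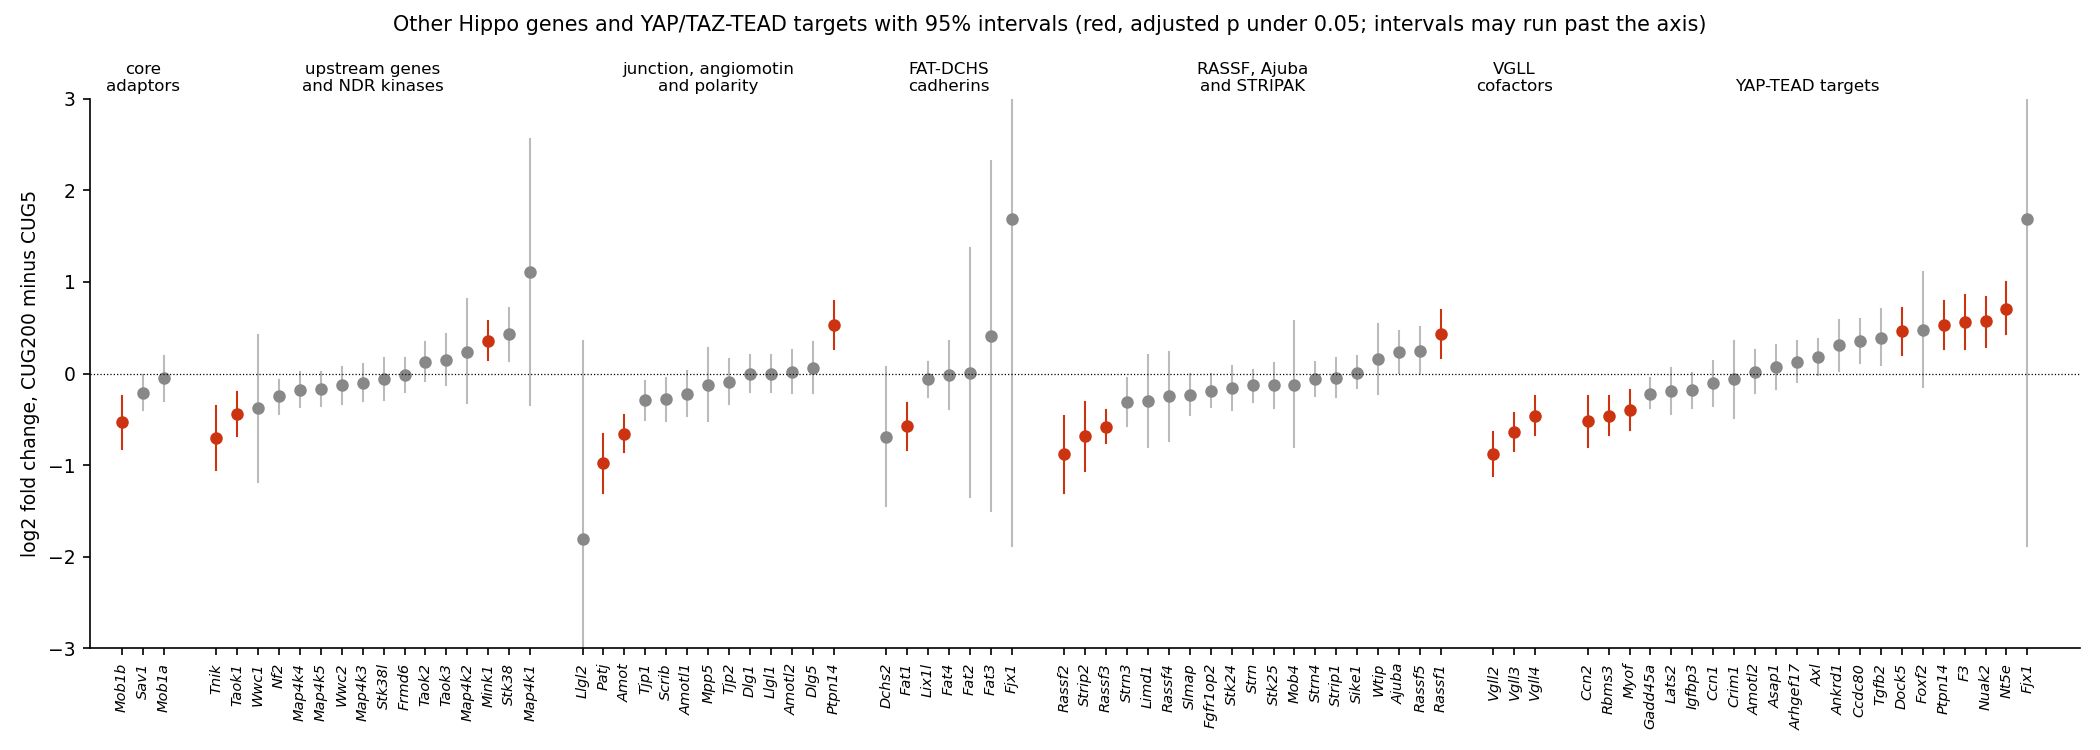
Log2 fold change (CUG200 minus CUG5) with its 95% interval for every tested gene of the other Hippo components and of the YAP/TAZ-TEAD target list, ordered within each role, with genes at an adjusted p under 0.05 in red. Vgll2, Vgll3, and Vgll4 are all below 0, and the targets hold 5 red points above and 3 below 0.

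The VGLL proteins bind the TEAD factors at the surface that YAP and TAZ use. All 3 tested VGLL genes fell in the DM1 group, against 8.73% of all tested genes, and *Vgll1*, the remaining one, was at 0 counts in every library. *Vgll2*, a muscle-restricted member, was at 24.2, 26.2, and 24.4 CPM in the normal and 12.3, 14.6, and 13.7 CPM in the DM1 libraries. Its libraries were tight within each group, and it fell by 0.88 on the log2 scale (SE 0.107, adjusted p = 0.00253). *Vgll3* was at 76.9, 80.5, and 94.0 CPM in the normal and 53.8, 55.3, and 52.0 CPM in the DM1 libraries. It fell by 0.64 (SE 0.0933, adjusted p = 0.00435). *Vgll4*, which represses YAP by competing for the TEAD factors, was at 36.0, 34.4, and 35.6 CPM in the normal and 26.3, 23.4, and 27.2 CPM in the DM1 libraries, and fell by 0.46 (SE 0.0919, adjusted p = 0.0131). The calls of *Vgll2* and *Vgll3* held in each of the 17 alternatives tried, and that of *Vgll4* was kept in 3 of the 6 fits that left out 1 library. Since *Vgll2* is a gene of differentiating muscle, the fall of 8 of the 10 muscle markers stands beside this result, and its part in it was not tested.

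The readout of the pathway is the transcription of YAP/TAZ-TEAD targets, and all 22 genes of a signature of such targets, known from human cancers, were tested. Of these, 5 rose and 3 fell in the DM1 group (36.4% called, against 15.9% of all tested genes), and the median log2 fold change was 0.16. Without any 1 of the normal libraries, or without the second DM1 library, between 1 and 3 rose and at most 1 fell. Those fits called between 5.18% and 7.25% of all tested genes. The classical target *Ccn2*, which encodes connective tissue growth factor, was at 113, 85.6, and 99.1 CPM in the normal and 64.6, 63.8, and 79.0 CPM in the DM1 libraries. No DM1 library reached the normal range, and *Ccn2* fell by 0.52 on the log2 scale (SE 0.125, adjusted p = 0.0258). The call held in 2 of the 6 fits that left out 1 library, with adjusted p between 0.00945 and 0.102. *Ccn1*, its close relative, was at 82.9 ± 6.78 CPM in the normal and 77.2 ± 9.46 CPM in the DM1 group (SD, n = 3; log2 fold change -0.10, 95% interval -0.35 to 0.14, adjusted p = 0.583). *Ankrd1*, a muscle ankyrin repeat gene with 2 TEAD motifs among the sequences above, was at 902, 685, and 916 CPM in the normal and 1080, 1020, and 994 CPM in the DM1 libraries. The DM1 libraries were all higher, and the log2 fold change of 0.31 did not pass the test (SE 0.120, 95% interval 0.03 to 0.58, adjusted p = 0.124). Of these 3 classical targets, *Ccn2* alone passed the test.

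Of the other targets, *Nt5e*, which encodes the cell-surface enzyme CD73, rose most, from 8.69 ± 0.644 to 14.3 ± 1.32 CPM (SD, n = 3), by 0.71 on the log2 scale (adjusted p = 0.00815). *Nuak2*, a kinase gene, rose by 0.57 (adjusted p = 0.0171), and *F3*, which encodes tissue factor, rose by 0.56 (adjusted p = 0.0224). *Ptpn14* and *Dock5* were the other genes that rose, *Dock5* by 0.46 (adjusted p = 0.0280), a call that held in 2 of the 6 fits with 1 library left out. *Rbms3*, an RNA-binding protein gene, fell by 0.46 (adjusted p = 0.0131), and *Myof*, which encodes the membrane protein myoferlin of fusing myoblasts, fell by 0.40 on the log2 scale (adjusted p = 0.0254). With 1 library left out, the call of *Nt5e* held in all 6 fits, that of *Rbms3* in 4, that of *Nuak2* in 3, and those of *F3* and *Myof* in 2 each. Of the 7 targets with the TEAD motif in a window, *Ptpn14* passed the test, and *Ankrd1*, *Ccn1*, *Lats2*, *Axl*, *Amotl2*, and *Crim1* did not (the last 3 with log2 fold changes of 0.18, 0.02, and -0.06).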

How the data were processed

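The study's groups, CUG5 and CUG200, and the replicate numbers were taken from the labels. The authors trimmed reads with Trim Galore, aligned them to GRCm38 with HISAT2, and quantified them with StringTie. They deposited counts per gene without normalization, and, for each library, coverage, FPKM, and TPM, the last of these scaled by length and depth. Counts were filtered with filterByExpr (minimum count 10), scaled by TMM, and tested in edgeR (quasi-likelihood, robust fit, group as the only term), with p-values adjusted by Benjamini-Hochberg. The mean transcript length is the deposited coverage divided by FPKM and scaled to the counts, at 75 bases per count. Levels of different genes were compared by deposited TPM. All 10 pathway genes had the same span in GENCODE M21, and 3 share a strand with an overlapping gene of at most 6 counts. The pathway genes, lists, and tests were chosen with earlier results of these data known. Named are the 10 genes, 10 fixed pathway genes, and in each role up to 4 called genes per direction whose groups do not overlap, by fold change; *Dock5* was added after its values were seen. The tests were tried on simulated counts with 100 genes changed by 1 and 100 by 2 on the log2 scale. At an adjusted p under 0.05, edgeR recovered 89 and 96 of these and called 23 unchanged genes. DESeq2 recovered 97 and 97 and called 57 unchanged genes. All pairs of libraries within a group differed beyond sampling noise (chi-square divided by its degrees of freedom at least 9.89). The floor of 3 counts is in units of 75 aligned bases and is not a limit on the reads behind a 0. Python 3.11.15 and R 4.3.3 were used, with limma 3.58.1, DESeq2 1.42.0, and edgeR 4.0.16.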

Additional observations from a re-analysis of the deposited data

How the results depend on the processing

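Calls near the threshold depended on the fit. DESeq2 and counts divided by 4 each called 1 pathway gene as higher (*Tead3*) in place of 0, and with 1 library left out this count lay between 0 and 1 and that of lower genes, 3 with all libraries, between 1 and 4. The lower genes came to 0 in limma-trend on log2(TPM + 1) and on log2(TPM + 0.1), which called 1025 and 1050 of all tested genes against 3016. The same 2 fits gave 0 higher and 7 lower other Hippo genes (3 and 12 in edgeR) and 0 higher and 0 lower targets (5 and 3). With 1 library left out, higher other Hippo genes lay between 0 and 3, lower ones between 5 and 18, higher targets between 1 and 6, and lower targets between 0 and 3. Over the same fits, between 5.18% and 19.2% of all tested genes were called. Without the third normal and without the second DM1 library, 1028 and 1157 genes were called in all, and *Tead2* was the 1 lower pathway gene in both. Without the second normal and the third DM1 library together, an alternative added after seeing the data, 2 targets were higher. *Tead1* turned to -0.59 and -0.62 in limma-trend and -0.02 without those 2 libraries, with a range of -1.48 to 1.47 over the fits with 1 library left out. *Mob1a* turned to 0.04 without those 2 libraries and ranged from -0.15 to 0.03 with 1 left out. The cause was not tested. Same-numbered libraries of the groups correlated at 0.113, 0.0518, and 0.0538 in their deviations from the group means, and the other pairs at -0.103 to 0.0485. The labels give these libraries only a shared number, and such small values cannot settle whether they were paired. Each library correlated best with its own number, a hint from the data and not from the design. With the replicate number as a block, 2823 genes were called, *Tead1* turned to -0.03, the same 3 pathway genes were lower and 0 were higher, *Stk38* was added to the other Hippo genes called higher, and among the higher targets *Dock5* was lost and *Tgfb2* added.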
